A study of Mus musculus with 12 samples.

Results

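The interferon regulatory factors (IRF) are a family of transcription factors, and 8 of its genes, Irf1, Irf2, Irf3, Irf4, Irf5, Irf7, Irf8 and Irf9, were followed here by name among the 54232 gene identifiers of the count table. Their RNA was followed in natural killer (NK) cells and in CD8 T cells that had been isolated from subcutaneous tumors of mice given MC38 cells, a mouse colon adenocarcinoma line, 1000000 per flank. Tumors were taken after 8 to 10 days, the mice were 6 to 12 weeks old by the study's methods, and 300 cells were sorted per library, NK cells as CD45+ CD3ε- NK1.1+ and CD8 T cells as CD45+ CD3ε+ CD8a+. The mice were C57BL/6N wild type (WT), lacked the Janus kinase TYK2 (KO), or had the kinase-inactive point mutant Tyk2 tm3.1(K923E)Biat (KE). For KO the study's methods name the allele Tyk2 tm1Biat in the tumor experiment, while 1 library list of the study reads TYK2CMV where the labels read TYK2KO, and the counts do not settle which allele it was. This made 6 groups of 2 libraries: NK WT, NK KO, NK KE, CD8 WT, CD8 KO and CD8 KE. Both alleles are germline, so every cell of the mouse and of the tumor's host tissue carried them, while the injected MC38 cells did not. The labels do not say whether the 2 libraries of a group came from separate mice, so the p-values below measure the spread between these libraries, which may be technical.

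IRF proteins bind GAAA-containing DNA, the interferon-stimulated response element (ISRE). When type I interferon binds its receptor, the kinases TYK2 and JAK1 act on STAT2, which joins IRF9 in ISGF3, the factor that switches on interferon-stimulated genes (ISG) through the ISRE. Irf7 is itself such a gene, and IRF7, like IRF3 and IRF5, is activated by kinases downstream of nucleic acid sensors and drives interferon genes. IRF1 is induced through the gamma-activated site (GAS) and acts on major histocompatibility complex and guanylate-binding protein genes, while IRF2 binds the same sites, often as its antagonist. IRF4 and IRF8 are known mostly from cells of the immune system: IRF4 follows antigen receptor strength in T cells, and IRF8 is known from macrophages, dendritic cells, B cells and NK cells.

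The promoters of these genes differ in which interferon-response letters they hold, and those of Irf1, Irf2 and Irf8 are printed because they hold a match, that of Irf7 because its transcript was lower in every mutant library. RefSeq gave 11 transcript starts for the 8 genes (build GRCm38.p6), and the 300 bases from 250 before to 50 after each start were searched. The letters searched on both strands were GAAANNGAAA, the ISRE core, and TTCNNNGAA, the palindromic GAS. Of 32851 windows of all genes, 3.44% held the ISRE core and 8.3% held the GAS letters. Of the 11 windows of the Irf genes, 1 (9.09%) held the former and 3 (27.3%) the latter, and by gene these were 1 and 3 of 8. The 250 bases before the start are given 5′ to 3′ on the gene's strand, with the matches in capitals.
Irf1: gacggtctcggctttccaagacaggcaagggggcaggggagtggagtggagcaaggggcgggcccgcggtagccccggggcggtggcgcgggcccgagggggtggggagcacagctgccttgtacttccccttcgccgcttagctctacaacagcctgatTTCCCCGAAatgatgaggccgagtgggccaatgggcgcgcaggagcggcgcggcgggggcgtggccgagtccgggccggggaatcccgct
Irf2: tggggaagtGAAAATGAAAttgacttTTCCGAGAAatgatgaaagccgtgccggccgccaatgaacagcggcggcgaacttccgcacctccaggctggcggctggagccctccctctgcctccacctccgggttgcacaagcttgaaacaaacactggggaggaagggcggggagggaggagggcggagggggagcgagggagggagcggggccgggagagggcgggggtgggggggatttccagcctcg
Irf8: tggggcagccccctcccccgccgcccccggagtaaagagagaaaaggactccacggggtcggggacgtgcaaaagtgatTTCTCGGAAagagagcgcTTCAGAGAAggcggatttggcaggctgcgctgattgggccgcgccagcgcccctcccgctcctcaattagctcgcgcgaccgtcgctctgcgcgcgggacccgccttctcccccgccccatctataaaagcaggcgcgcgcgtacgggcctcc
Irf7: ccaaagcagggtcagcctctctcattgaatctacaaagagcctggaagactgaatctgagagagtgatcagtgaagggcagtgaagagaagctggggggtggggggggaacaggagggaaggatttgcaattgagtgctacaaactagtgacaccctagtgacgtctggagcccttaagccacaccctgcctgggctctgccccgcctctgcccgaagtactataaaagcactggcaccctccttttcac

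The Irf1 stretch is chr11:53769764-53770013 on the plus strand, and its GAS match TTCCCCGAA begins 90 bases before the start. The Irf2 stretch is chr8:46739495-46739744 on the plus strand, where the ISRE core GAAAATGAAA begins at -241 and a GAS match, TTCCGAGAA, at -224. The matches in Irf2 do not overlap each other. The Irf8 stretch, chr8:120736108-120736357 on the plus strand, has GAS matches at -171 (TTCTCGGAA) and -153 (TTCAGAGAA). The Irf7 stretch is chr7:141266425-141266674 on the minus strand and holds neither set of letters, as did the windows of Irf3, Irf4, Irf5 and Irf9. For comparison, the ISRE core was found in 7 of 13 genes with a RefSeq window in a list of ISRE-driven ISG and in 8 of 13 in a list of interferon gamma genes that depend on IRF1. The GAS letters were found in 3 of 13 and 4 of 13 genes of the same lists.

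**Figure D1:**
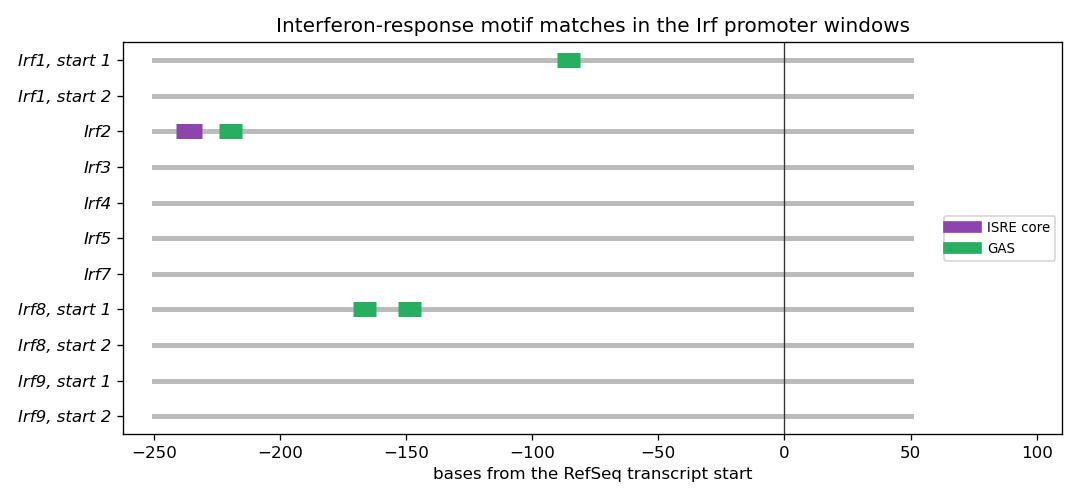
Matches to the ISRE core (purple) and the GAS letters (green) in the 11 promoter windows of the 8 Irf genes, plotted by distance in bases from the RefSeq transcript start (vertical line); each grey bar is a window of 300 bases. The only ISRE core lies in Irf2, and the GAS matches lie in Irf1, Irf2 and Irf8.

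Each library had 10378761 to 14732882 counts, and Pearson's r of log2 CPM (each count divided by its library total and put on one shared scale) across genes was 0.750 to 0.795 between the 2 libraries of a group. The labelled cell types carried their markers: 4 NK markers together reached 2368 and 3028 CPM in NK WT, 3552 to 4832 CPM in NK mutants and 5.11 to 44.8 CPM in CD8 libraries, and 5 T cell markers 9377 to 12392 CPM in CD8 libraries and 42.4 to 320 CPM in NK libraries. A list of 12 myeloid markers (Lyz2, C1qa, Csf1r and others) summed to 9487 and 8762 CPM in the NK WT libraries and to 5389 CPM in NK KO 1, but to 22.3, 53.8 and 253 CPM in NK KO 2, NK KE 1 and NK KE 2. In CD8 libraries it summed to 49.96 to 403 CPM. Every NK comparison of genotypes below was made between libraries that also differed in this sum, and in bulk RNA fewer cells of a type and less RNA per cell cannot be told apart. The T cell markers summed to 42.4 and 100.04 CPM in NK WT and to 48.8 to 320 CPM in NK mutants, with a positive log2FC for 5 of 5, as had 4 of 4 NK markers (Ncr1 1.06 ± 0.22, FDR = 0.139). Dendritic cell, neutrophil, and tumor and stroma markers summed to at most 44.2, 6.71 and 24.0 CPM. Of 5 B cell markers only Ighm exceeded 3 counts in any library, at 285 to 746 CPM in NK and 157 to 520 CPM in CD8 libraries. Tyk2 itself averaged 64.8 ± 5.75, 80.5 ± 34.2 and 101 ± 26.1 CPM in NK WT, KO and KE and 67.2 ± 26.8, 67.9 ± 8.39 and 52.8 ± 8.64 CPM in CD8 WT, KO and KE (SD, n = 2). A count per gene sums reads over all exons and does not show the allele, so KO and KE below name libraries labelled as such.

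All 8 Irf genes had a mean normalised count of at least 10 and were tested. Their levels were first set side by side per length, as CPM per kilobase of exon. In NK WT cells Irf8 was the highest, at 441 ± 89.8 CPM per kb (SD, n = 2), followed by Irf7 at 221 ± 45.5, Irf1 at 124 ± 43.8, Irf9 at 61.5 ± 16.2, Irf2 at 42.1 ± 9.71, Irf3 at 29.1 ± 3.30, Irf5 at 22.4 ± 13.8 and Irf4 at 0.129 ± 0.183. Only Irf3 and Irf5 were neighbours in this order whose libraries overlapped. In CD8 WT cells Irf7 came first at 127 ± 2.37 CPM per kb, then Irf1 at 96.6 ± 45.4, Irf9 at 60.3 ± 45.0, Irf8 at 47.4 ± 7.51, Irf2 at 46.1 ± 8.44, Irf3 at 21.4 ± 10.7, Irf4 at 9.12 ± 1.16 and Irf5 at 0.0277. There the libraries of each neighbouring pair from Irf7 to Irf2 overlapped, but Irf7 lay clear above Irf9, Irf8 and Irf2, and Irf1 clear above Irf8 and Irf2. Irf3, Irf4 and Irf5 each lay clear of the gene above, while Irf9 reached down into the range of Irf3. Irf7 held rank 2 in NK WT and rank 1 in CD8 WT. In the mutants its mean was at rank 3 in NK KO (41.6 ± 1.497 CPM per kb), rank 4 in NK KE (57.2 ± 6.41), rank 7 in CD8 KO (15.1 ± 9.61) and rank 6 in CD8 KE (24.6 ± 23.9). Its libraries overlapped those of Irf3 in all 4 mutant groups, and in CD8 KE both of its neighbours, Irf9 and Irf4, so these ranks are those of the means.

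**Figure D2:**
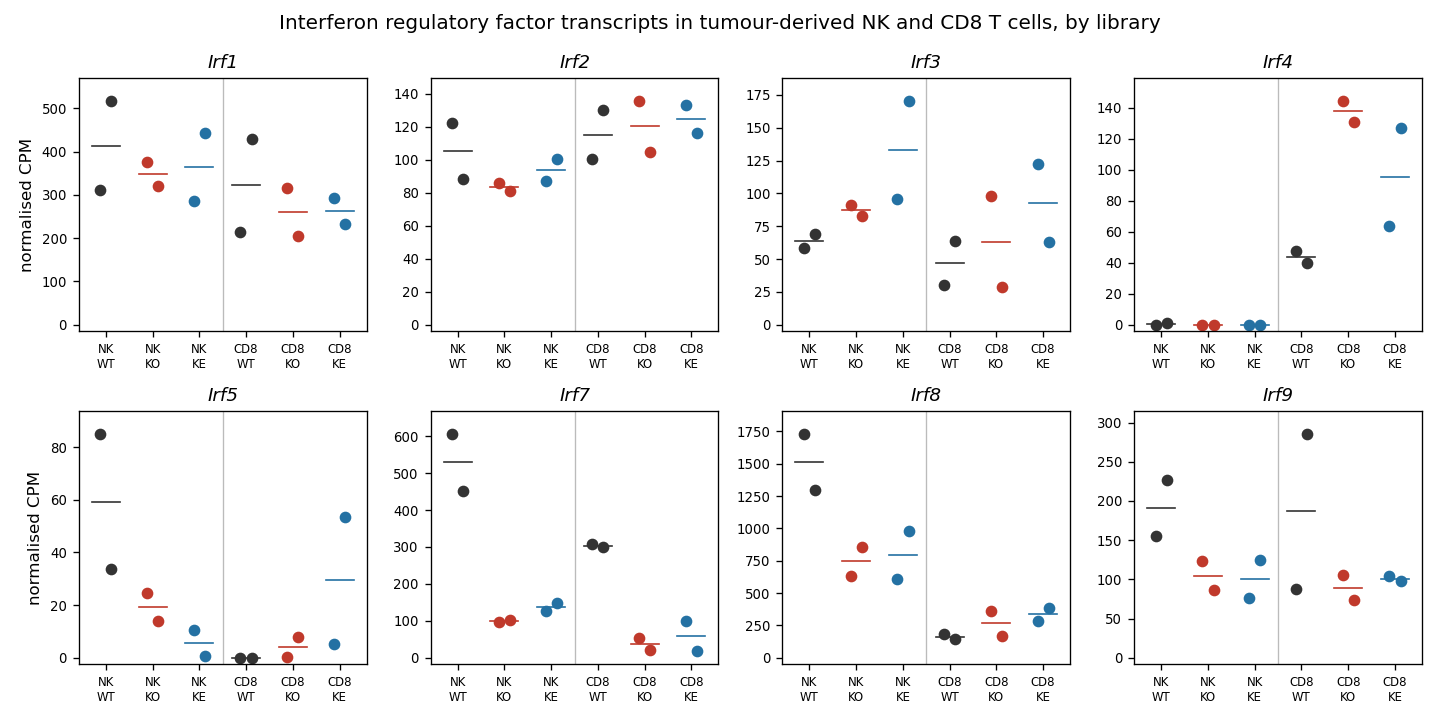
Normalised CPM of each Irf gene (y axis, own scale per panel) in the 12 libraries by group (x axis); points are libraries and lines the mean of 2. Irf7 lies lower in all 4 mutant libraries than in both WT libraries of each cell type, Irf4 is near 0 in every NK library, and Irf8 is higher in every NK library than in every CD8 library.

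Irf7, the factor that amplifies type I interferon, was lower in every mutant library than in every WT library of the same cell type. In NK cells it stood at 607 and 453 CPM in WT, at 97.1 and 102 CPM in KO, and at 126 and 148 CPM in KE. In CD8 T cells it stood at 307 and 299 CPM in WT, at 52.4 and 19.8 CPM in KO, and at 99.3 and 18.4 CPM in KE. The mutants thus lay between 97.1 and 148 CPM in NK cells and between 18.4 and 99.3 CPM in CD8 T cells, with no overlap with WT in either. Of all 13279 genes tested, 1.47% were lower in all mutant libraries of both cell types without overlap, and Irf7 was the only Irf gene among them.

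By edgeR, the log2 fold change (log2FC) of Irf7 was -2.41 ± 0.67 (SE; FDR = 0.598) in NK KO, -1.95 ± 0.66 (FDR = 0.679) in NK KE and -2.18 ± 0.53 (FDR = 0.237) for the mean of both mutants against NK WT. In CD8 T cells it was -3.07 ± 0.69 (FDR = 0.409) in KO, -2.37 ± 0.67 (FDR = 0.558) in KE and -2.72 ± 0.53 (FDR = 0.124) for both mutants. None of these passed the threshold of an FDR under 0.05, although each had an unadjusted p under 0.05. DESeq2, the tool the study used, gave nearly the same log2FC and called Irf7 in NK KO (FDR = 0.0122), CD8 KO (3.45e-04), CD8 KE (0.0136), NK mutants (0.00524) and CD8 mutants (1.54e-04), not in NK KE. Whether Irf7 was called therefore rested on the tool, and also on the filter: with no filter on low counts edgeR called it in all 6 comparisons. Calls over all genes rose with it in that fit, from 4 to 374 in NK mutants and from 27 to 209 in CD8 mutants. Over all alternatives the FDR of Irf7 ran from 2.87e-07 to 0.675 in NK mutants and from 4.10e-11 to 0.633 in CD8 mutants, where leaving out CD8 KE 1 (99.3 CPM) gave -3.56 and a call (FDR = 0.0161). In CD8 KE the log2FC was -4.04 without KE 1 and -1.61 without KE 2. The myeloid sum was 5389 and 22.3 CPM in the NK KO libraries with 97.1 and 102 CPM of Irf7, and in CD8 T cells that of WT (184 and 180 CPM) lay within the range of the mutants. The part of myeloid RNA in the Irf7 difference was not tested.

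Irf9, the DNA-binding subunit of ISGF3, read 155 and 226 CPM in NK WT, 124 and 85.9 CPM in NK KO, and 76.2 and 125 CPM in NK KE. All 4 mutant libraries lay below both WT libraries, as for 10.4% of all genes. In CD8 T cells the WT libraries were far apart at 88.2 and 286 CPM, against 106 and 73.3 CPM in KO and 104 and 98.0 CPM in KE, so the groups overlapped. The CD8 mutants gave a log2FC of -0.97 ± 0.44 (FDR = 0.725). That value rested on CD8 WT 2, since without it the log2FC was 0.11.

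Irf1, the GAS-controlled activator, and Irf2, its antagonist, showed no separation by genotype. Irf1 read 311 and 517 CPM in NK WT, 377 and 322 in NK KO, 287 and 442 in NK KE, 215 and 429 in CD8 WT, 317 and 205 in CD8 KO, and 293 and 233 in CD8 KE. The mutant libraries overlapped the WT libraries in both cell types. Irf2 varied least over the 12 libraries, with 122 and 88.0 CPM in NK WT, 85.9 and 81.1 in NK KO, 87.2 and 101 in NK KE, 100.2 and 130.0 in CD8 WT, 136 and 104.7 in CD8 KO, and 133 and 116 in CD8 KE. Neither gene had an unadjusted p under 0.05 in any of the 11 comparisons.

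Irf3, which the kinase TBK1 activates and whose transcript is held to be constitutive, was the only member higher in the NK mutants without overlap. Of all genes tested, 6.88% were higher there in the same way. Irf3 read 58.7 and 68.9 CPM in NK WT against 91.2 and 83.1 in NK KO and 95.3 and 170 in NK KE. CD8 WT had 30.4 and 63.5 CPM, CD8 KO 98.0 and 28.6, and CD8 KE 123 and 62.8, so the CD8 groups overlapped. The summed NK markers were also higher in all 4 NK mutant libraries, and their part in the Irf3 difference was not tested. Irf3 had an unadjusted p of at least 0.05 in every comparison.

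Irf5, an activator of inflammatory cytokine genes in macrophages, read 85.1 and 33.5 CPM in NK WT, 24.6 and 14.0 in NK KO, and 10.6 and 0.824 in NK KE. All NK mutant libraries were below both WT libraries, as for 10.4% of all genes. The spread was wide, and no NK comparison of genotypes had an unadjusted p under 0.05. All 12 myeloid markers had a negative log2FC in NK mutants, with a median of -5.03 (11 with an unadjusted p under 0.05, beside 9.04% of all genes). In NK KO 3 had such a p and in NK KE 9, beside 6.3% and 6.01% of all genes. NK KO 1, KO 2, KE 1 and KE 2 had myeloid sums of 5389, 22.3, 53.8 and 253 CPM, with 24.6, 14.0, 10.6 and 0.824 CPM of Irf5. Lyz2 was higher in NK KO 1 (43171 counts) than in NK WT (29919 and 27222). The part of these markers in the Irf5 difference was not tested. In NK KO 2, where Irf5 had 189 counts, Lyz2 had 262 and C1qb 15, and the other markers had 6 or fewer, with Spi1 and Cd14 at 0. In CD8 T cells Irf5 had 1 count in each WT library, 1 and 93 counts in KO, and 64 and 731 counts in KE. Reads of Irf5 were thus at or under the floor of 3 counts in 3 CD8 libraries and well above it in the other 3.

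The summed counts of Irf5 gave a ratio of KE to WT in CD8 T cells of 421 (95% interval 116 to 3483) and of KO to WT of 51.0 (13.7 to 428). These exact intervals cover counting error only, and both ratios rested mostly on 1 library, with 93 of 94 counts from KO 2 and 731 of 795 from KE 2. The edgeR log2FC was 5.55 ± 2.25 (FDR = 0.887) in CD8 KO, 8.47 ± 2.52 (FDR = 0.589) in CD8 KE and 7.01 ± 2.32 (FDR = 0.662) in CD8 mutants, values that depend on the prior count because WT was near 0. Without CD8 KO 2 the KO value was 0.02 and that of both mutants 4.23, and without CD8 KE 2 the KE value was 5.99. DESeq2 called Irf5 in CD8 KE (FDR = 8.37e-04) and CD8 mutants (0.00320), while over all alternatives the FDR in CD8 KE reached 1 and that in CD8 mutants 0.9999. The CD8 library with the most Irf5, KE 2 at 53.5 CPM, had a myeloid sum of 199 CPM, and KE 1 with the highest CD8 myeloid sum, 403 CPM, had 5.29 CPM of Irf5. Its exons share 251 bases with those of Tnpo3 on the other strand.

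**Figure D3:**
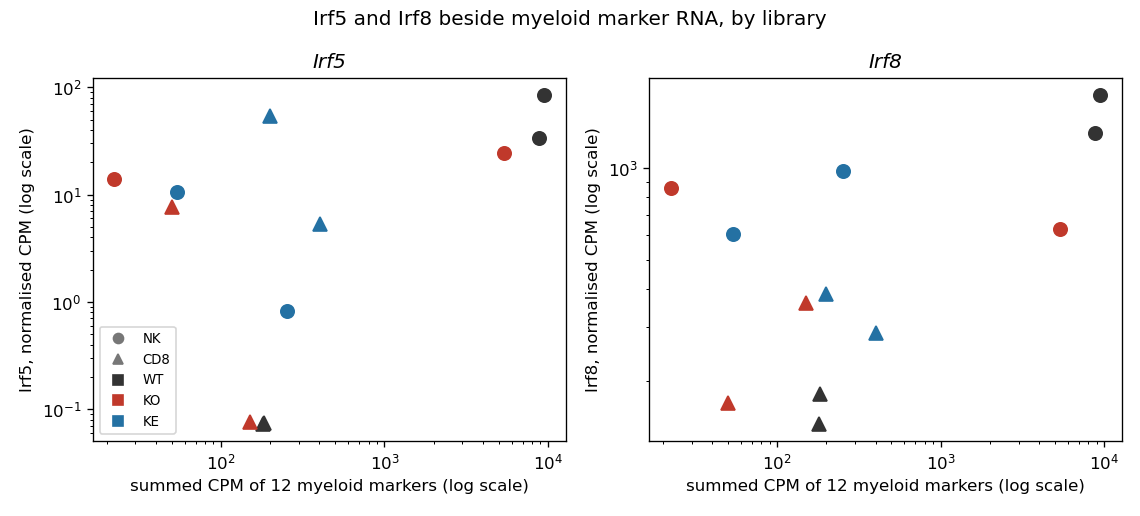
Irf5 (left) and Irf8 (right) in normalised CPM against the summed CPM of 12 myeloid markers in each of the 12 libraries, both axes on a log scale; circles are NK and triangles CD8 libraries, colored by genotype. The NK WT libraries are at the upper right, NK KO 2 has 22.3 CPM of myeloid RNA with 860 CPM of Irf8, and 3 CD8 libraries have 1 count of Irf5.

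Irf8 was the most abundant Irf transcript of NK cells. It read 1732 and 1296 CPM in NK WT, 629 and 860 CPM in NK KO, and 608 and 979 CPM in NK KE. Every mutant library was below both WT libraries, as for 10.4% of all genes. The log2FC was -1.02 ± 0.37 (FDR = 0.757) in KO, -0.93 ± 0.37 (FDR = 0.786) in KE and -0.98 ± 0.31 (FDR = 0.362) for both. The myeloid sum was lower in the same libraries, and its part in this difference was not tested. In NK KO the library with 5389 CPM of myeloid RNA had 629 CPM of Irf8 and the library with 22.3 CPM had 860 CPM. The 3 NK libraries with a myeloid sum of 253 CPM or less had 608 to 979 CPM of Irf8.

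In CD8 T cells the direction was the opposite. Irf8 read 181 and 144 CPM in CD8 WT, 360 and 169 CPM in CD8 KO, and 287 and 385 CPM in CD8 KE, where only CD8 KO 2 lay within the WT range. The log2FC was 1.05 ± 0.37 (FDR = 0.786) in KE and 0.87 ± 0.33 (FDR = 0.725) for both mutants. The difference of the mutant effects between NK and CD8 cells, tested as an interaction, was -1.85 ± 0.45 with FDR = 0.521 by edgeR. DESeq2 called it at -1.84 (FDR = 0.00712), and over all alternatives its FDR ran from 1.21e-04 to 0.924.

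Irf4, the factor tied to antigen receptor signals, was a CD8 T cell transcript in these data. It read 47.4 and 39.5 CPM in CD8 WT, 145 and 131 CPM in CD8 KO, and 63.9 and 127 CPM in CD8 KE. All 4 mutant libraries were above both WT libraries, as for 6.35% of all genes. The log2FC of 1.40 ± 0.99 in CD8 mutants did not pass the test (FDR = 0.838). NK cells had nearly none, with 0 and 16 counts in the WT libraries, 0 and 1 in the KO libraries and 1 in each KE library, so that 5 of 6 NK libraries were at or under the floor of 3 counts. The NK values of log2FC, -3.73 ± 1.54 in KO (FDR = 0.766) and -3.25 ± 1.17 in both mutants (FDR = 0.454), and the interaction, -4.65 ± 1.55 (FDR = 0.833), came from the 16 counts of NK WT 2: without it NK WT was 1 library at 0 counts and the fitted values were 2.28, 2.76 and 1.39. Of the B cell markers, whose cells also express Irf4, only Ighm was above the floor. It read 285 to 746 CPM in NK and 157 to 520 CPM in CD8 libraries.

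At the filter used, edgeR called Irf genes only in the comparisons of cell types. In WT, Irf8 was higher in NK than in CD8 cells by 3.22 ± 0.40 on the log2 scale (FDR = 0.00379), a call that was lost without CD8 WT 2 (FDR = 0.0540) and held under the other 17 alternatives. The NK WT libraries were those with the most myeloid RNA, whose part was not tested. Over the 3 genotypes Irf8 was higher in NK cells by 1.98 ± 0.22 (FDR = 4.52e-04) and Irf4 lower by a fitted log2FC of -9.20 ± 0.92 (FDR = 2.60e-04), and all 18 alternatives kept both calls. All 6 NK libraries lay above all 6 CD8 libraries for Irf8 (1.95% of all genes), and below them for Irf4 (2.71%). The direct ratio of Irf4 counts, CD8 to NK, was 67.6 (95% interval 41.5 to 119) in WT, 3635 (652 to 143603) in KO and 1177 (325 to 9721) in KE. The NK side of these ratios held 16 counts in WT, all of them in NK WT 2, 1 in KO and 2 in KE.

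Irf7 was also higher in NK cells over the 3 genotypes, by 1.16 ± 0.37 (FDR = 0.113), which did not pass the test. It passed with edgeR when CD8 KE 1 was left out (1.72, FDR = 0.00841) and with no filter on low counts (FDR = 1.52e-04). The log2FC of Irf5 was 9.48 ± 2.61 in WT (FDR = 0.174) and 3.14 ± 1.14 over the 3 genotypes (FDR = 0.157). The first is a fitted value against 2 counts in CD8 WT, and the second was 4.97 without CD8 KO 2 and 2.22 without NK KE 1. The myeloid sum differed with it, at 9487 and 8762 CPM in NK WT against 184 and 180 CPM in CD8 WT, and its part was not tested. The log2FC of Irf4 in WT was -6.10 ± 1.36 (FDR = 0.0861). Without NK WT 2, which held all NK WT reads of Irf4, it was a fitted -12.14 and was called (FDR = 0.0206). That value sets 1 NK library at 0 counts against CD8 WT, so it depends on the prior count, is no bound, and assumes that the lone library varies like the other groups. With no filter on low counts it was also called (FDR = 2.39e-05). DESeq2 called Irf4 and Irf5 in WT and Irf5 and Irf7 over the 3 genotypes. Irf1, Irf2, Irf3 and Irf9 lay between -0.13 and 0.80 in WT, together with Irf7, and between -0.35 and 0.47 over the 3 genotypes.

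**Figure D4:**
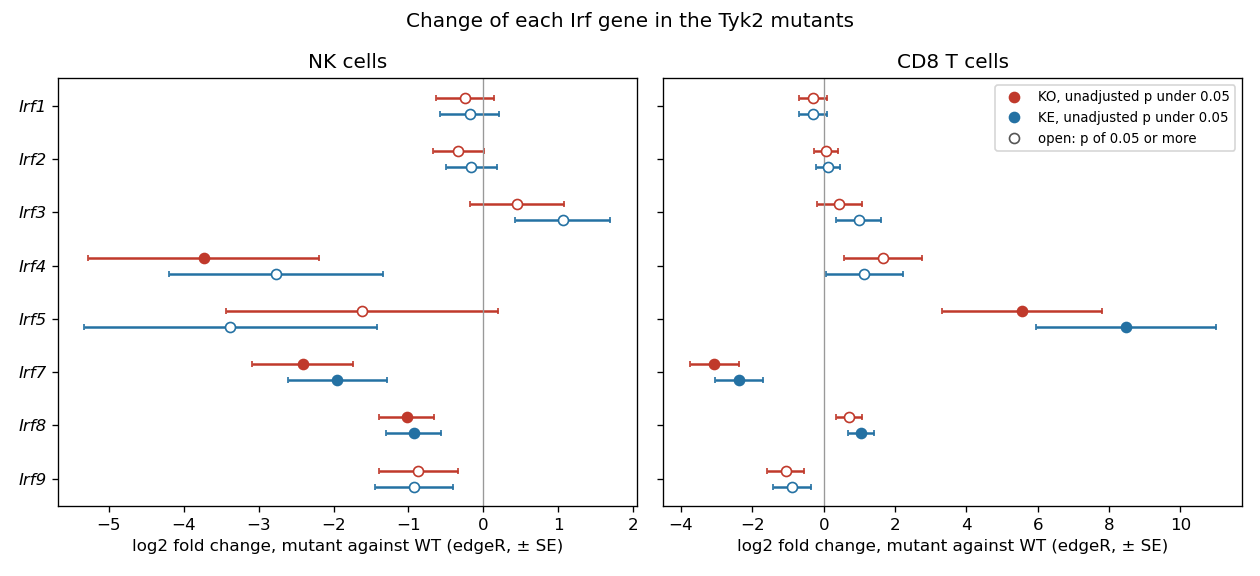
Log2 fold change (x axis, edgeR, ± SE) of each Irf gene in KO (red) and KE (blue) against WT, in NK cells (left) and CD8 T cells (right); filled points had an unadjusted p under 0.05, and none passed FDR 0.05. Irf7 lies left of 0 in both mutants and both cell types, and Irf8 lies left of 0 in NK and right of 0 in CD8 T cells.

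Counted over the family, edgeR called 0 of 8 Irf genes in each of the 9 comparisons that involve genotype, and these counts stand beside low counts over all genes. In NK KO against WT the share of all genes called was 0%, with 6.3% at an unadjusted p under 0.05 (3 Irf genes: Irf4, Irf7 and Irf8) and 2.83% called by DESeq2 (1 Irf gene). In NK KE against WT these shares were 0%, 6.01% (2 Irf genes) and 2.94% (0 Irf genes). For both NK mutants against WT they were 0.0301%, 9.04% (3 Irf genes) and 3.42% (1 Irf gene). In CD8 KO against WT they were 0.0527%, 4.82% (2 Irf genes) and 1.77% (1 Irf gene), and in CD8 KE against WT 0.0828%, 5.56% (3 Irf genes) and 2.49% (2 Irf genes). For both CD8 mutants they were 0.203%, 6.72% (4 Irf genes) and 2.48% (2 Irf genes). For the mutant effect in NK against that in CD8 they were 0.0151%, 5.7% (3 Irf genes) and 2.02% (2 Irf genes). The cell types differed in far more genes: 0.776% called, 10.2% at an unadjusted p under 0.05 and 6.3% called by DESeq2 in WT, against 1, 3 and 3 Irf genes, and 4.47%, 19.3% and 12.1% over the 3 genotypes, against 2, 4 and 4 Irf genes.

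Without overlap between groups, 4 Irf genes (Irf5, Irf7, Irf8 and Irf9) were lower in the NK mutants, where 10.4% of all genes were, and 1 (Irf3) was higher, where 6.88% were. In CD8 T cells 1 was lower (Irf7; 7.27% of all genes) and 1 higher (Irf4; 6.35%). Between the cell types 1 was lower in NK (Irf4; 2.71%) and 1 higher (Irf8; 1.95%). The median log2FC of the 8 genes was -0.94 in NK mutants and 0.40 in CD8 mutants, beside -0.05 and 0 over all genes. The same WT libraries served for KO and for KE, so the values of both mutants against WT share them.

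KO and KE were also compared directly, which asks whether a TYK2 protein without kinase activity leaves the family at another level than no protein. No Irf gene was called by edgeR or DESeq2 in either cell type, and none had an unadjusted p under 0.05, where 3.8% of all genes in NK and 3.62% in CD8 T cells had one, 0% were called by edgeR and 1.56% and 1.2% by DESeq2. The log2FC of KO against KE ran from -0.96 (Irf4) to 1.76 (Irf5) in NK cells and from -2.91 (Irf5) to 0.53 (Irf4) in CD8 T cells. The Irf7 values were -0.46 ± 0.64 for NK and -0.70 ± 0.64 for CD8. At such errors a log2FC of 1 in Irf7 would not have had an unadjusted p under 0.05.

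The genes around the family were described by lists of known roles, chosen with earlier results of these data known, so their counts are a description. Of 20 ISRE-driven ISG, all 20 had a negative log2FC in both cell types, with a median of -2.94 in NK mutants and -3.42 in CD8 mutants, beside -0.05 and 0 over all genes. EdgeR called 0 in NK and 3 in CD8 (Oasl2, Zbp1 and Xaf1), 15 and 16 had an unadjusted p under 0.05, and DESeq2 called 8 and 10. Over all genes, in NK and CD8 mutants, edgeR called 0.0301% and 0.203%, an unadjusted p under 0.05 was found for 9.04% and 6.72%, and DESeq2 called 3.42% and 2.48%. Bst2, the tetherin that holds budding virus at the membrane, read 217 to 272 CPM in NK WT and 45.6 to 55.5 CPM in NK mutants (log2FC -2.26 ± 0.38, FDR = 0.0819). Zbp1, a nucleic acid sensor, read 358 to 362 CPM in CD8 WT and 64.0 to 95.1 CPM in CD8 mutants (-2.11 ± 0.29, FDR = 0.0258). Xaf1 gave -2.32 ± 0.33 (FDR = 0.0258) and Oasl2, with 12.4 to 56.1 CPM in WT and at most 0.166 CPM in mutants, a fitted value of -8.76 ± 0.91 (FDR = 0.00585). The summed level of the 20 genes was 2413 to 3049 CPM in the 4 WT libraries and 248 to 577 CPM in the 8 mutant libraries, and the libraries with the least, CD8 KE 2 (248 CPM) and CD8 KO 2 (329 CPM), were also the 2 lowest for Irf7.

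**Figure D5:**
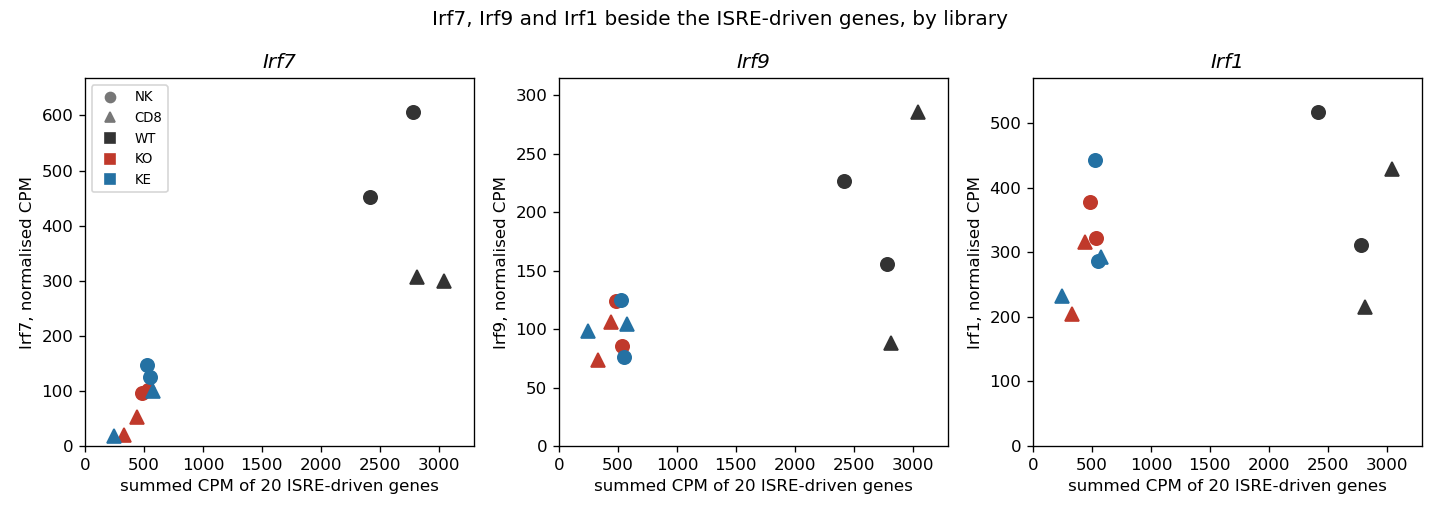
Irf7, Irf9 and Irf1 (y axis, normalised CPM) against the summed CPM of 20 ISRE-driven genes (x axis) in each of the 12 libraries; circles are NK and triangles CD8 libraries, colored by genotype. The 8 mutant libraries lie between 248 and 577 CPM on the x axis; Irf7 is separated with them, Irf9 is with the exception of CD8 WT 1, and Irf1 is not.

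Of 18 interferon gamma genes that depend on IRF1, 16 had a negative log2FC in NK mutants and 15 in CD8 mutants, with medians of -0.83 and -1.21. EdgeR called 0 in NK and 1 in CD8 T cells, 4 and 9 had an unadjusted p under 0.05 (9.04% and 6.72% of all genes), and DESeq2 called 2 and 4 (3.42% and 2.48% of all genes). The gene called was Gbp7, a guanylate-binding protein, at 321 to 410 CPM in CD8 WT and 114 to 155 CPM in CD8 mutants (-1.48 ± 0.24, FDR = 0.0487). Irgm1, an immunity-related GTPase, gave -1.32 ± 0.31 in NK (FDR = 0.212) and -1.53 ± 0.31 in CD8 mutants (FDR = 0.147). Cd274, which encodes the checkpoint ligand PD-L1, read 133 to 134 CPM in CD8 WT and 20.5 to 51.3 CPM in CD8 mutants (-1.71 ± 0.44, FDR = 0.331). Irf1 itself did not differ by genotype beyond its spread, as given above.

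Upstream of the family, none of 10 genes for interferon receptors, their kinases and STATs was called by edgeR in either cell type, and 2 in NK and 3 in CD8 mutants had an unadjusted p under 0.05 on the lower side, while DESeq2 called 1 and 2. The shares of all genes, in either direction, were 9.04% and 6.72% at that p and 3.42% and 2.48% by DESeq2. Their medians were -0.20 and -0.29. Stat2, the partner of IRF9 in ISGF3, read 124 to 181 CPM in CD8 WT and 7.19 to 40.8 CPM in CD8 mutants (-2.41 ± 0.64, FDR = 0.342). Of the 16 sensors and kinases that act on IRF3, IRF5 and IRF7, 15 were tested and edgeR called none, with medians of -0.43 in NK and 0 in CD8 mutants. An unadjusted p under 0.05 was found for 1 of 15 in NK mutants, on the lower side, and 2 of 15 in CD8 mutants, 1 lower (Ddx58) and 1 higher (Ticam1), beside 9.04% and 6.72% of all genes, and DESeq2 called 0 and 1, beside 3.42% and 2.48%. Tlr7, a sensor of single-stranded RNA, read 17.9 to 23.9 CPM in NK WT and at most 0.225 CPM in NK mutants (a fitted -9.23 ± 2.68, FDR = 0.397). NK KO 1, which kept a myeloid sum of 5389 CPM, was among these mutant libraries, and the part of myeloid RNA was not tested. Ddx58, the sensor RIG-I, read 205 to 389 CPM in CD8 WT and 34.7 to 218 CPM in CD8 mutants (-1.77 ± 0.54, FDR = 0.542). Ticam1, the adaptor TRIF, had at most 0.435 CPM in CD8 WT and 0 to 39.4 CPM in CD8 mutants (a fitted 5.70 ± 2.52, FDR = 0.725).

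Of 14 genes for IRF partners and regulators, 13 were tested and edgeR called none, 5 in NK and 2 in CD8 mutants had an unadjusted p under 0.05, all on the lower side, and DESeq2 called 2 and 1. Over all genes the shares were again 9.04% and 6.72% at that p, in either direction, and 3.42% and 2.48% by DESeq2. The list shares Spi1, which encodes PU.1, with the myeloid markers, and Spi1 is 1 of the 2 in CD8 mutants, where its WT reads were 86 counts in CD8 WT 2 and 0 in CD8 WT 1. Ets1, whose protein binds DNA beside IRF proteins, read 461 to 720 CPM in NK WT and 161 to 311 CPM in NK mutants (-1.31 ± 0.29, FDR = 0.168), and 854 to 915 CPM in CD8 WT and 320 to 489 CPM in CD8 mutants (-1.01 ± 0.29, FDR = 0.445). Prdm1, which encodes the repressor BLIMP1 and competes for ISRE-like sites, read 89.0 to 99.3 CPM in NK WT and 17.4 to 50.1 CPM in NK mutants (-1.58 ± 0.44, FDR = 0.319). Batf3, the partner of IRF8 in dendritic cells, read 4.70 to 14.5 CPM in NK WT and had 0 counts in the 4 NK mutant libraries.

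The genes whose profile over the 12 libraries was most like that of an Irf gene were taken by Pearson's r of log2 CPM, each library as its difference from the mean of its cell type, among the other 13278 genes. This is a description over libraries that share cell sorting and genotype. For Irf7 they were Lgals3bp (r = 0.961), Ifi211 (0.955) and Ifi206 (0.954), of which the last 2 belong to the interferon-inducible Ifi200 family. For Irf9 they were Src (0.911), Eepd1 (0.899) and Ifi205 (0.898), and Irf1 was at place 19 (0.844). For Irf1 they were 9530085L11Rik (0.884), Gm47588 (0.881) and Trip6 (0.849), at means of only 1.30, 2.53 and 2.37 CPM, with Irf9 next at place 4.

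For Irf8 the 3 nearest genes were Rab31 (0.877), Flii (0.870) and Tssk6 (0.869), for Irf5 Gm43809 (0.881), Kctd12 (0.862) and Zfp873 (0.837), and for Irf4 Fam20a (0.886), A430093F15Rik (0.877) and Gm37772 (0.844). For Irf2 they were Gm37570 (0.896), Nphp4 (0.862) and Sh2d2a (0.859), and for Irf3 Gm43788 (0.926), Rab23 (0.913) and Bid (0.871). Irf7 and Irf9 had r = 0.635 with each other, and Irf7 and Irf8 r = 0.02. Only for Irf7 were the 3 genes all above an r of 0.95. Mean levels of the genes named as nearest ran from 1.12 CPM (Gm43788) to 970 CPM (Sh2d2a). Each r is among the highest of 13278 over 12 libraries and was not tested.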

How the data were processed

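The authors sorted 300 cells per library, made cDNA by Smart-seq2 from 500 pg of RNA, ran Trimmomatic and STAR on single-end reads, with mm10 (GRCm38) as the genome, and counted uniquely aligned reads in exons. The deposited values are these raw counts per gene, not pooled; the labels call the libraries stranded, but Smart-seq2 with Nextera does not mark strand, and a strand setting of the counting is not given in the sources used here, so reads of Irf1 and Irf5 and of overlapping genes on the other strand may be mixed (100 and 251 shared exon bases). Irf9 shares 123 exon bases with Rnf31 on the same strand. Intervals and the floor of 3 counts cover counting error only, since no molecular identifiers were stated.

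Groups came from the sample titles. Counts were fitted with edgeR 4.0.16 in R 4.3.3 (TMM, robust quasi-likelihood F-test, two-sided) with 1 mean per group over all 12 libraries. Genes with a mean normalised count of at least 10 were kept (13279), FDR is the Benjamini-Hochberg value over all of them, and a gene was called at an FDR under 0.05 and an absolute log2FC of at least 1. SE is the absolute log2FC over the square root of F. CPM used TMM library sizes, log2 CPM a prior count of 2, and exon lengths GENCODE vM21. For overlap between groups, counts of 3 or less were set equal. The alternatives were DESeq2 1.42.0, RLE size factors, no filter, a fit per cell type, the replicate number as a block and leaving out each library, and, chosen after seeing the data, filters of 1 and 50. Scripts were tested on simulated data.

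All 8 Irf genes were named. Statistics were given for those with an unadjusted p under 0.05 in a comparison, 3 genes of nearest profile for each, and for the lists examples with the smallest p in that cell type. Some genes that these rules name are not reported here. The Irf genes, lists and comparisons were chosen with earlier results of these data known. Promoter sequences are from RefSeq (GRCm38.p6); all 8 genes had an entry.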

Additional observations from a re-analysis of the deposited data

How the results depend on the processing

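With DESeq2 the number of Irf genes called was 1 in NK KO, 1 in CD8 KO, 2 in CD8 KE, 1 in NK mutants and 2 in CD8 mutants against WT, 2 for the mutant effect in NK against CD8, 3 for NK against CD8 in WT and 4 over the 3 genotypes. With no filter on low counts it was 1, 1, 3, 1 and 1 for the same 5 comparisons against WT, 1 in NK KE, 2 for the mutant effect in NK against CD8, and 3 and 4 between cell types. That fit called 374 genes in NK mutants and 209 in CD8 mutants, against 4 and 27 in the fit reported. Calls over all genes were counted without a filter for these 2 comparisons alone, so its other counts of Irf genes stand without a share. The fit with no filter tested 23707 genes with a median prior df that was infinite, against 4.37 in the fit reported. Filters of 1 and 50, chosen after seeing this, changed no call of an Irf gene, nor did RLE size factors. A fit per cell type gave 15 of the 27 values and changed none of those calls; it gave none between cell types and none for Irf4 in NK cells, which fell under the count filter there.

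Leaving out each library in turn gave 0 to 1 Irf genes called in CD8 mutants against WT, 0 to 2 for NK against CD8 in WT and 2 to 3 over the 3 genotypes. Calls over all genes were not counted in these fits. The log2FC of Irf4 ran from -6.00 to 2.28 in NK KO, from -4.39 to 2.76 in NK mutants and from -5.75 to 1.39 for the mutant effect in NK against CD8, turning only without NK WT 2. That of Irf9 in CD8 mutants ran from -1.59 to 0.11 and turned only without CD8 WT 2. The direction of the other 23 values given with their statistics held in every fit that gave them.

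The labels number the libraries 1 and 2 in every group but tie the numbers to nothing. Same-numbered libraries of different groups had deviations from their group means with r of -0.03 to 0.04. With the replicate block all 27 values kept their direction and side of the threshold; Irf7 in CD8 mutants was -2.90 (FDR = 0.105).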
